A study of Mus musculus with 2 samples.

Results

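The 9 genes described here encode secreted or released proteins of innate immunity: the cytokines *Il6*, *Lif*, *Il11*, *Il33* and *Csf1*, the pentraxin *Ptx3*, and the complement genes *C3*, *C4b* and *Serping1*. They were taken by their symbols, and all 9 were among the 31053 genes listed in both libraries. Each was read as a summed level, as a share of cells and as a spread between cells in cultured primary mouse brain pericytes (PCs). The study set cultured brain PCs beside PCs taken directly from the brain, which were not analysed here, and the comparison made here is between passages. A culture at passage 5 (PC5) gave 1 library, and another at passage 20 (PC20) gave the other. Both cultures came from brains of female wild type C57BL/6N mice, 6 to 8 weeks old, with the cells of 6 mice pooled per isolation. No transgene, sort or stimulus is described for them, and by the methods the cultures were moved from an endothelial growth medium to a pericyte medium in the first passages. By the methods of the study PC5 and PC20 came from different isolations, while the series text describes 1. Passage and isolation therefore cannot be told apart, and with 1 library per passage no test between passages was made.

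Kept cells had over 1000 genes and less than 20% of their UMIs in mitochondrial genes, which left 9950 of 10629 barcodes in PC5 and 4749 of 4884 in PC20. A UMI is a molecular tag that counts 1 captured mRNA molecule once. These cells gave 223054273 UMIs for PC5 and 191122251 for PC20, with a median of 21700 and 33424 UMIs per cell. PC20 cells were thus the deeper ones, so shares of cells were also counted after every cell was thinned to 10500 UMIs, which 8847 PC5 and 4474 PC20 cells allowed. The libraries shared 20 barcodes. Of the pericyte markers, *Pdgfrb* stood at 44.6 CPM (counts per 1000000 UMIs of the library) in PC5 and 5.43 CPM in PC20, *Rgs5* had 405 and 0 UMIs, and *Abcc9* had 1 UMI in each library, while *Anpep* went the other way at 1.93 and 3.00 CPM (log2 ratio -0.63, -0.82 to -0.45). The 6 pericyte markers summed to 53.9 and 8.53 CPM. *Abcc9* was thus near 0 in both libraries and *Rgs5* was at 0 in PC20, and the cells are called PCs here only as the labels name them. Defining leukocyte and microglia markers were at or near 0, with 1 *Ptprc* UMI in PC5, 0 in PC20, and 0 UMIs of *Cd48*, *Adgre1* and *Tyrobp* in either library. The summed level of the 10 markers of that list was 5.62 CPM in PC5 against 5.30 CPM in PC20, most of it *Cx3cr1* in PC5 (3.52 CPM) and *Cd68* in PC20 (4.49 CPM).

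The interleukin 6 type cytokines IL-6, LIF and IL-11 each bind a different receptor. They signal through the shared chain gp130, encoded by *Il6st*, to the kinase JAK1 and the transcription factor STAT3. IL-33 is kept in the nucleus of barrier and stromal cells and acts on its receptor ST2, encoded by *Il1rl1*, once it is released, and CSF1 keeps macrophages and microglia alive through CSF1R. Pentraxin 3 is a soluble pattern recognition protein that binds the complement component C1q, C3 and C4 are cleaved when complement is activated, and C1 inhibitor, encoded by *Serping1*, blocks the proteases of C1. In brain PCs, which wrap the capillaries, such genes are known as part of the response to inflammatory signals.

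Promoter sequence is shown for the members with which the group splits by passage. *Il6* was higher in PC5, and *Ptx3* and *Csf1* were higher in PC20. Each line gives the 250 bases before the RefSeq start of transcription on GRCm38.p6, on the strand of the gene and 5′ to 3′. Capitals mark matches on either strand to 4 motifs, which were TTNNGCAA for C/EBP, TGANTCA for AP-1, GGGNNTTTC for NF-kB and TTCNNNGAA for STAT.

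*Il6*, chr5:30012864-30013113, + strand: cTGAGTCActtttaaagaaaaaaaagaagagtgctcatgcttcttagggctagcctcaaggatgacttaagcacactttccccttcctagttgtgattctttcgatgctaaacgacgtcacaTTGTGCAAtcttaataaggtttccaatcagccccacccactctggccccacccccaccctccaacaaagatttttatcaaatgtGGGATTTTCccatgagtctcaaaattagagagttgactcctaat

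*Ptx3*, chr3:66219637-66219886, + strand: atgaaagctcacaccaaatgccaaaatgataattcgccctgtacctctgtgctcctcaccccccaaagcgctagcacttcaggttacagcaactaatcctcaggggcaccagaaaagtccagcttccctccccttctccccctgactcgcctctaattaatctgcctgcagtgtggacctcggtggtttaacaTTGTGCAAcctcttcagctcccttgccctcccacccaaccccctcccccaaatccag

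*Csf1*, chr3:107760470-107760719, - strand: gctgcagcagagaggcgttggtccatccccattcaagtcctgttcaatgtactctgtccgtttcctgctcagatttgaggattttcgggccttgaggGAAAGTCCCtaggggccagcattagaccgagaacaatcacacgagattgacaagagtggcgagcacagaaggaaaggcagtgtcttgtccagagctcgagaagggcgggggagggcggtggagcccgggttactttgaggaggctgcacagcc

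The *Il6* window held 3 matches that did not overlap, an AP-1 match 249 to 243 bases before the start, a C/EBP match 128 to 121 bases before it and an NF-kB match 44 to 36 bases before it. The *Ptx3* window held the same 8 letters, TTGTGCAA, as the C/EBP match of *Il6*, 57 to 50 bases before the start. The *Csf1* window held an NF-kB match on the opposite strand, 153 to 145 bases before the start. Of 32851 windows of this length over all genes, 9.56% held a C/EBP match, 6.75% an AP-1 match, 3.72% an NF-kB match and 7.02% a STAT match. Among the 9 windows of the 7 members for which one was found, C/EBP matches also lay in the *C3* window and in 1 of 2 *Il33* windows, AP-1 matches in the *Lif* window and in 1 of 2 *Il11* windows, and a STAT match in none. Members higher in PC5 and members higher in PC20 thus shared a motif, and a match of letters is a description of the window and not a binding site. The motifs were chosen after the sequences were seen, so the shares over all windows are no test of the members.

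All 9 genes differed between the libraries by more than counting error, and they did not go one way. *Il6*, *Il33*, *Lif*, *Il11* and *Serping1* were higher in PC5, *Csf1* and *Ptx3* were higher in PC20, and *C3* and *C4b* were rare in both. Of the 7 members seen in at least 10% of cells of PC5 or of PC20, 5 were over 2-fold higher in PC5 and 2 were over 2-fold higher in PC20. Over all 10504 genes with that detection, 17.9% were over 2-fold higher in PC5 and 19.1% over 2-fold higher in PC20. The median log2 ratio of PC5 over PC20 was 4.24 over the 7 members and 3.11 over all 9, against -0.03 over the 10504 genes. The median over all 9 is the ratio of 1 rare gene, *C4b*, with 18 UMIs in PC20. Neither *C4b* nor *C3* reached the 10% minimum that defines the 10504 genes. *Il33*, *Serping1*, *Il6* and *Il11* passed the 10% minimum in PC5 alone, and *Ptx3* passed it in PC20 alone. Such a pass already favours the direction seen, so the counts and the median over the 7 members are description only. *Il6* and *Il11* passed the 10% minimum at full depth with 11.2% and 13.0% of PC5 cells and did not pass it in thinned cells, where 3 members were counted as higher in PC5. Intervals given below are at the 95% level and cover counting error in these libraries, not the spread between cultures. Those on CPM and ratios take UMIs as independent, so they are too narrow for genes with UMIs concentrated in few cells.

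**Figure D1:**
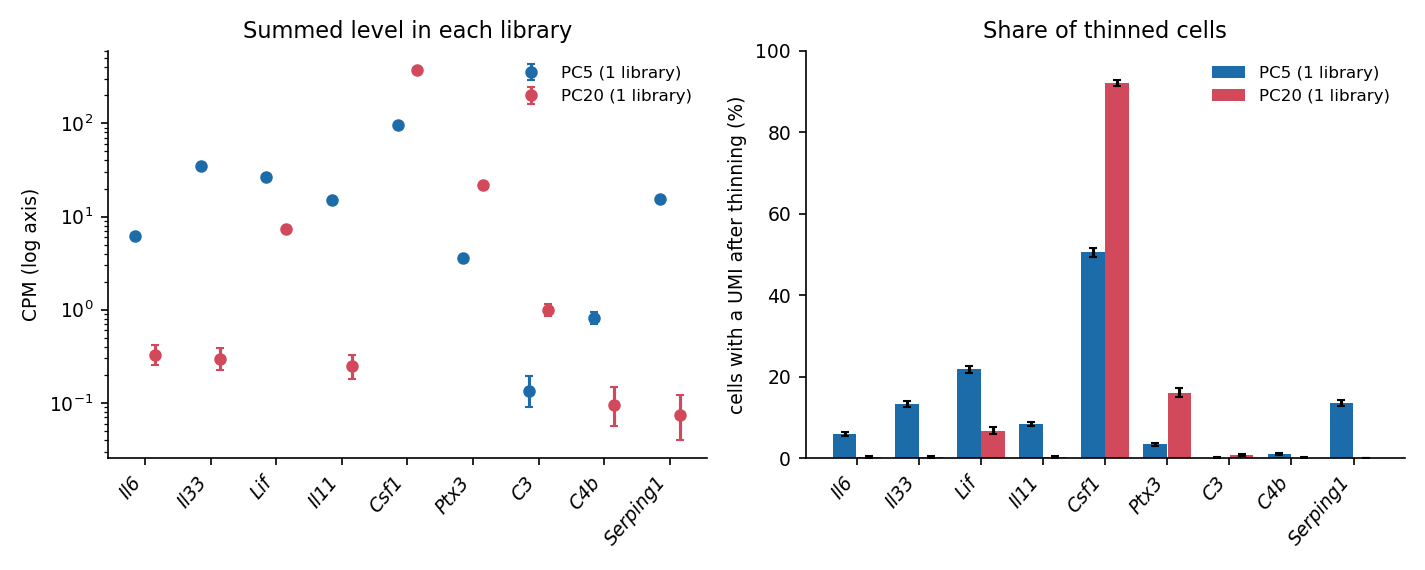
Left, CPM of each of the 9 genes in PC5 (blue) and PC20 (red) on a log axis, with exact Poisson 95% intervals. Right, the percentage of cells with a UMI after thinning to 10500 UMIs per cell, as bars from 0 with Clopper-Pearson 95% intervals. *Csf1* is the highest of the 9 in both libraries and stands at 95.9 CPM in PC5 against 378 CPM in PC20, while *Serping1* goes from 15.3 CPM in PC5 to 0.0733 CPM in PC20.

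The 3 gp130 cytokines were all higher in PC5, *Il6* and *Il11* by more than 10-fold and *Lif* by less than 4-fold. *Il6* (ENSMUSG00000025746, chromosome 5, 30013114 to 30019981 on the forward strand of GRCm38) encodes the best known cytokine of fever and the acute phase response. It had 1392 UMIs in PC5 and 63 in PC20, that is 6.24 CPM (5.92 to 6.58) and 0.330 CPM (0.253 to 0.422). PC5 was thus 18.9-fold higher, with a log2 ratio of 4.24 (3.88 to 4.63). Among thinned cells, *Il6* was detected in 5.88% of PC5 cells against 0.335% of PC20 cells. Of the 520 positive thinned PC5 cells, 476 held a single UMI.

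*Lif* (ENSMUSG00000034394, chromosome 11, 4257557 to 4272514, forward strand) encodes leukemia inhibitory factor, which holds stem and progenitor cells in an undifferentiated state. It had 5914 UMIs or 26.5 CPM in PC5 and 1391 UMIs or 7.28 CPM in PC20, and its log2 ratio was 1.87 (1.78 to 1.95). Of the 3 it was the one still seen in many PC20 cells, with a UMI in 21.8% of thinned PC5 cells and 6.82% of thinned PC20 cells. *Il11* (ENSMUSG00000004371, chromosome 7, 4772373 to 4782859, reverse strand) encodes a cytokine known from stromal cells and fibrosis. It had 3324 UMIs or 14.9 CPM in PC5 and 47 UMIs or 0.246 CPM in PC20, a 60.6-fold difference and a log2 ratio of 5.92 (5.51 to 6.37). Thinned shares were 8.43% of PC5 cells and 0.291% of PC20 cells.

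Further genes of the same pathway, receptors among them, leaned the same way but not throughout. Of 11 further genes of this pathway, 10 were seen in at least 10% of cells of PC5 or of PC20. Of these, 5 were over 2-fold higher in PC5, 1 was over 2-fold higher in PC20 and 4 lay within 2-fold. Over all 10504 genes with that detection, 17.9% were over 2-fold higher in PC5 and 19.1% in PC20. *Lifr* passed the 10% minimum in PC5 alone and *Ctf1* in PC20 alone. Such a pass already favours the direction seen, so the counts are description only. The shared chain *Il6st* was plentiful in both libraries, at 174 CPM in PC5 against 99.6 CPM in PC20 (log2 ratio 0.81). The receptors of LIF and IL-6 differed more widely than *Il6st*, and that of IL-11 less. *Lifr*, the LIF receptor, stood at 9.46 and 0.963 CPM (log2 ratio 3.30), and *Il6ra*, the IL-6 receptor, at 19.7 and 5.48 CPM (1.84). *Il11ra1*, the IL-11 receptor, stood at 15.0 and 11.8 CPM (0.35), so the receptor of IL-11 differed far less than *Il11* itself. *Osmr*, the receptor of oncostatin M, was 20.5-fold higher in PC5 with 87.5 and 4.26 CPM, although *Osm* itself had 0 UMIs in both libraries, which allows up to 0.0134 CPM in PC5 and 0.0157 CPM in PC20. The cardiotrophin-like cytokine *Clcf1* stood at 7.30 and 8.34 CPM and cardiotrophin 1, *Ctf1*, at 2.03 and 4.12 CPM, the latter being the gene of the list over 2-fold higher in PC20. Downstream, *Jak1* had a log2 ratio of -0.02, while *Stat3* had 2.18 and its feedback inhibitor *Socs3* 1.07.

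*Il33* was the most uneven of the cytokines, high in PC5 and close to nothing in PC20. *Il33* (ENSMUSG00000024810, chromosome 19, 29925114 to 29960718, forward strand) had 7873 UMIs in PC5 and 57 in PC20, that is 35.3 CPM (34.5 to 36.1) and 0.298 CPM (0.226 to 0.386). The difference was 118-fold, with a log2 ratio of 6.89 (6.51 to 7.29). A UMI was seen in 13.3% of thinned PC5 cells and 0.358% of thinned PC20 cells. Its receptor *Il1rl1* was seen in the same library, with 1610 UMIs in PC5 and 7 in PC20 (7.62, interval 6.58 to 8.94), and the co-receptor *Il1rap* stood at 19.6 and 4.21 CPM (2.22). The related receptor *Il1r1*, which binds interleukin 1, was 54.6-fold higher in PC5 at 42.3 and 0.774 CPM.

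Interleukin 1 itself was near absent, with 1 and 2 UMIs of *Il1a* and 2 and 0 UMIs of *Il1b* in PC5 and PC20. Of 10 further genes of the IL-1 family and its signalling, 6 reached 10% of cells. Against 17.9% of all 10504 genes, 4 of these 6 were over 2-fold higher in PC5, and 2 lay within 2-fold. The 4 were *Il1r1*, *Il1rap*, the cytokine *Il18* with 6.90 and 1.74 CPM (1.99) and the adaptor *Myd88* with 14.7 and 6.47 CPM (1.18). *Il1r1* and *Il18* passed the 10% minimum in PC5 alone. Such a pass already favours the direction seen, so the counts are description only. The kinase *Irak1* and the ligase *Traf6*, both further downstream, had log2 ratios of 0.57 and 0.63.

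*Csf1* was the highest of the 9 genes in both libraries and was higher in PC20. *Csf1* (ENSMUSG00000014599, chromosome 3, 107741048 to 107760469, reverse strand) had 21393 UMIs or 95.9 CPM (94.6 to 97.2) in PC5 and 72253 UMIs or 378 CPM (375 to 381) in PC20. PC20 was 3.94-fold higher, a log2 ratio of -1.98 (-2.0 to -1.96). It was found in 50.6% of thinned PC5 cells and in 92.2% of thinned PC20 cells, so nearly every PC20 cell carried it. Its receptor *Csf1r* was close to absent, with 116 UMIs in PC5 and 3 in PC20. *Il34*, the other ligand of that receptor, stood at 25.8 and 34.2 CPM (-0.40). Of 6 further genes of the CSF ligands and receptors, *Il34* and *Csf2ra* reached 10% of cells, and *Csf2ra*, a chain of the GM-CSF receptor, was 4.74-fold higher in PC20 with 4.76 and 22.6 CPM. Its ligand *Csf2* had 16 and 10 UMIs.

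*Ptx3* went the way of *Csf1*, at a lower level. *Ptx3* (ENSMUSG00000027832, chromosome 3, 66219910 to 66225805, forward strand) had 805 UMIs or 3.61 CPM (3.36 to 3.87) in PC5 and 4129 UMIs or 21.6 CPM (21.0 to 22.3) in PC20. PC20 was 5.99-fold higher, with a log2 ratio of -2.58 (-2.69 to -2.47). Thinned shares were 3.45% of PC5 cells and 16.2% of PC20 cells. *Tnfaip6*, whose product TSG-6 joins pentraxin 3 in the hyaluronan matrix, went the other way with 3872 UMIs in PC5 and 4 in PC20 (9.70). So did the hyaluronan synthase *Has2*, with 12.7 and 1.01 CPM (3.66). These 2 were the genes of the 9 acute phase and pentraxin partners that reached 10% of cells, and of the short pentraxins *Crp* had 0 and 2 UMIs and *Apcs* 0 in both libraries.

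The complement genes were low, apart from *Serping1* in PC5. *C3* (ENSMUSG00000024164, chromosome 17, 57203970 to 57228136, reverse strand), the central component, had 30 UMIs or 0.134 CPM (0.0907 to 0.192) in PC5 and 190 UMIs or 0.994 CPM (0.858 to 1.15) in PC20. Its log2 ratio was -2.89 (-3.49 to -2.33), and it was found in 0.158% of thinned PC5 cells and 0.738% of thinned PC20 cells. *C4b* (ENSMUSG00000073418, chromosome 17, 34728380 to 34743882, reverse strand), of the classical and lectin pathways, had 182 UMIs or 0.816 CPM (0.702 to 0.943) in PC5 and 18 UMIs or 0.0942 CPM (0.0558 to 0.149) in PC20. Its log2 ratio was 3.11 (2.41 to 3.90), so the 2 components differed in opposite directions, with at most 1.03% of the thinned cells of a library positive for either. *C4a*, a near-identical copy of *C4b*, was not among the gene symbols listed in the libraries, and its molecules may in part be counted as *C4b*.

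*Serping1* (ENSMUSG00000023224, chromosome 2, 84765387 to 84775444, reverse strand) was seen in many PC5 cells and hardly at all in PC20. It had 3402 UMIs or 15.3 CPM (14.7 to 15.8) in PC5 and 14 UMIs or 0.0733 CPM (0.0400 to 0.123) in PC20, and its log2 ratio was 7.70 (6.95 to 8.57). A UMI was found in 13.5% of thinned PC5 cells and in 2 of 4474 thinned PC20 cells. At full depth the PC20 share was 0.190% (0.0867 to 0.359), and genes of unrelated lineages (hemoglobin, muscle and neuronal genes among them) reached up to 0.147% there, so *Serping1* in PC20 was at the level of background. In PC5 these genes reached up to 0.121% of cells, below the 0.281% (0.187 to 0.406) of *C3* there.

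Around these 3 genes, several regulators of complement were higher in PC5 and most components were scarce in both libraries. Of 18 further activation genes listed, *Masp1*, a protease of the lectin pathway, was the one with a UMI in at least 10% of cells, at 20.8 CPM in PC5 against 26.6 CPM in PC20 (-0.35). The proteases of C1 were low, with 303 and 102 UMIs of *C1ra* and 250 and 31 of *C1s1*. *C1qa*, *C1qb* and *C1qc* had 1 UMI in all over both libraries. Of 11 regulators and receptors, 5 reached 10% of cells. Of these, 3 were over 2-fold higher in PC5 and 1 in PC20, against 17.9% and 19.1% of all 10504 genes. The remaining 1 lay within 2-fold. Of the 3, *Cd55* and *C3ar1* passed the 10% minimum in PC5 alone. Such a pass already favours the direction seen, so the counts are description only. Decay accelerating factor, *Cd55*, which restrains C3 cleavage, had 18050 UMIs in PC5 and 5 in PC20. The receptor of the C3a fragment, *C3ar1*, stood at 17.4 and 0.712 CPM (4.61), and *Clu*, which binds the terminal complex, at 59.0 and 14.1 CPM (2.06). *Cr1l*, the rodent membrane regulator Crry, was 2.26-fold higher in PC20 with 19.8 and 44.8 CPM, and *Cd59a* had a log2 ratio of 0.99. *C4bp*, which binds C4b, had 1243 UMIs in PC5 and 0 in PC20, where 0 UMIs allow up to 0.0157 CPM.

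**Figure D2:**
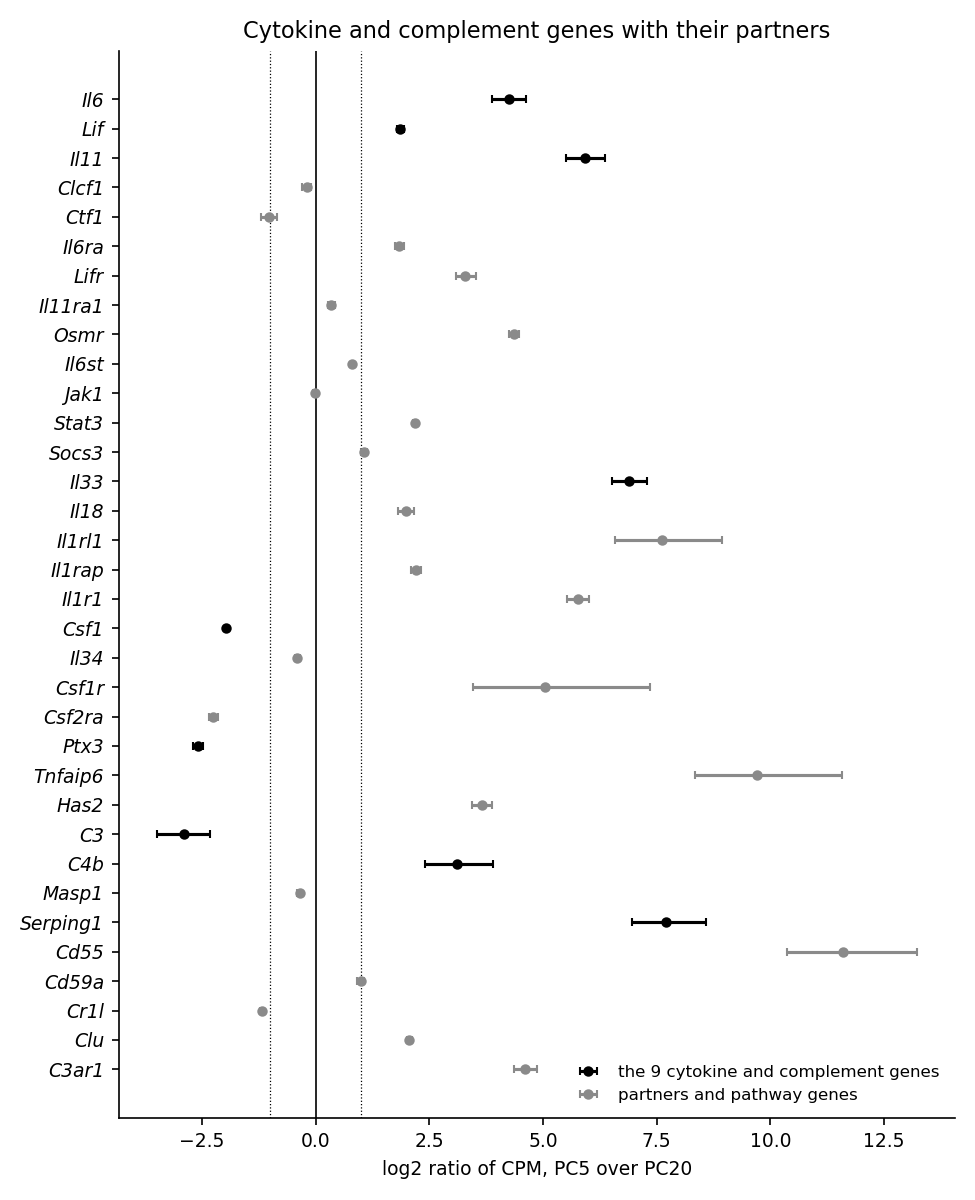
The log2 ratio of CPM in PC5 over PC20 for the 9 genes (black) and for partner and pathway genes (grey), with exact conditional binomial 95% intervals as bars. The solid line marks 0 and the dotted lines mark 2-fold either way. *Csf1*, *Ptx3* and *C3* lie left of the lines, the other 6 lie right of them, and *Il6st* (0.81), *Il11ra1* (0.35) and *Jak1* (-0.02) lie between them.

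The regulators known to act on such genes differed in both directions, most of them by less than 2-fold. All 12 NF-kB and C/EBP regulators reached 10% of cells. Within 2-fold lay 7 of them, as did 6613 of all 10504 genes with that detection. *Nfkb1* (0.01), *Rela* (0.17) and *Cebpd* (-0.05) were among the 7. Of the 12, 1 was over 2-fold higher in PC5 and 4 in PC20, against 17.9% and 19.1% of all 10504 genes. *Nfkbiz*, a nuclear cofactor of NF-kB, was higher in PC5 with 66.9 and 11.5 CPM (2.54). The 4 that were over 2-fold higher in PC20 were *Cebpb* with 139 and 374 CPM (-1.43), the inhibitor *Nfkbia* with 21.9 and 85.3 CPM (-1.96), *Relb* (-1.08) and *Nfkb2* (-1.01). Of these, *Relb* passed the 10% minimum in PC20 alone, which favours the direction seen. Chemokines also differed in both directions, and 8 of 10 reached 10% of cells. Of these, 3 were over 2-fold higher in PC5 and 3 in PC20, against 17.9% and 19.1% of all 10504 genes. Each of those chemokines passed the 10% minimum only in the library where it was higher, so the counts are description only. *Ccl2*, *Ccl7* and *Ccl8*, which attract monocytes, were those higher in PC5, with *Ccl2* at 302 and 8.58 CPM. *Ccl5*, *Cxcl10* and *Cx3cl1* were those higher in PC20, with *Cxcl10* at 8.94 and 77.7 CPM. All 10 interferon response genes reached 10% of cells. Of these, 2 (*Ifit1* and *Gbp2*) were over 2-fold higher in PC5, 3 (*Isg15*, *Irf7* and *Bst2*) were over 2-fold higher in PC20 and 5 lay within 2-fold. The interferon counts were thus near the shares over all genes. *Gbp2* passed the 10% minimum in PC5 alone, which favours the direction seen.

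Markers of other cell types differed between the libraries beside the 9 genes. The summed level of 5 fibroblast markers was 1877 CPM in PC5 and 107 CPM in PC20, and that of 5 endothelial markers was 181 and 0.262 CPM, most of it *Cdh5* with 168 CPM in PC5. The endothelial marker *Kdr* had 2853 UMIs in PC5 and 13 in PC20. *Cldn5*, *Pecam1* and *Tek* were lower, with 14, 121 and 37 UMIs in PC5 and 8, 21 and 3 in PC20. The 5 astrocyte markers summed to 157 and 233 CPM, nearly all of it *Slc4a4*, while the other 4 were higher in PC5, among them *Aldh1l1* with 1640 and 5 UMIs and *Gfap* with 97 and 0. The 5 oligodendrocyte markers summed to 4.63 and 5.34 CPM. The part of these differences in the result was not tested. Leaving out cells with any leukocyte or microglia marker UMI removed 796 PC5 and 564 PC20 cells. Then 5 members were over 2-fold higher in PC5 and 2 in PC20, against 18.0% and 19.5% of all genes. That subset does not address the fibroblast, endothelial and astrocyte markers.

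Ordered by level, the 9 genes made a different list in each library. A UMI stands for the 3′ end of a molecule, so CPM is not divided by gene length here. In PC5 the order of CPM was *Csf1* (95.9), *Il33* (35.3), *Lif* (26.5), *Serping1* (15.3), *Il11* (14.9), *Il6* (6.24), *Ptx3* (3.61), *C4b* (0.816) and *C3* (0.134). The intervals of *Serping1* and *Il11* overlapped and those of all other neighbours did not. In PC20 the order was *Csf1* (378), *Ptx3* (21.6), *Lif* (7.28), *C3* (0.994), *Il6* (0.330), *Il33* (0.298), *Il11* (0.246), *C4b* (0.0942) and *Serping1* (0.0733). There *Il6*, *Il33* and *Il11* could not be told apart at this depth, and neither could *C4b* and *Serping1*. *Csf1* was first in both lists, while *Il33* was second in PC5 and *Ptx3* second in PC20.

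Within a library the members differed in how their UMIs were spread over cells. The spread is given as the Fano factor, the variance over the mean of UMIs per thinned cell, which is close to 1 when cells differ by counting error alone. In PC5 *Il33* had a Fano factor of 9.64, while the 1219 genes whose log2 mean lay within 0.32 of it had a median of 1.07 and 2 of them were higher. *Il11* had 5.93 against a median of 1.04, with 1 of 1420 genes higher. Both genes were thus carried in bulk by few cells. A UMI of *Il33* was found in 1174 thinned PC5 cells, of which 372 held 3 or more and together held 73.1% of all *Il33* UMIs, and the highest cell held 54. For *Il11*, 124 cells with 3 or more UMIs, 1.40% of the thinned cells, held 50.4% of its UMIs, and the highest cell held 34.

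The other members were spread more evenly in PC5 than *Il33* and *Il11*. *Csf1* had a Fano factor of 2.90 against 1.15 for 702 genes of like mean, *Lif* 1.61 against 1.06, *Serping1* 1.42 against 1.04, *Ptx3* 1.34 against 1.03 and *Il6* 1.17 against 1.03. These were still uneven for their mean. Of the genes of like mean, 15 of 702 were higher than *Csf1*, 29 of 1404 than *Lif* and 35 of 1424 than *Serping1*. For *Ptx3* 33 of 791 were higher, and for *Il6* 92 of 994. For *Il6* the highest cell held 4 UMIs, and for *C3* and *C4b* no thinned PC5 cell held more than 1. *Il6* and *Il11* were therefore unlike in spread, although both were seen in under 10% of thinned cells. In PC20 *Ptx3* had 1.89 against 1.05, with 10 of 1348 genes of like mean higher, and *Csf1* had 2.12 against 1.38 with 17 of 139 higher. A PC20 cell positive for *Csf1* held a median of 4 UMIs, and 63.5% of all thinned PC20 cells held 3 or more, against 11.1% in PC5. *Lif* was close to counting error in PC20 at 1.10.

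**Figure D3:**
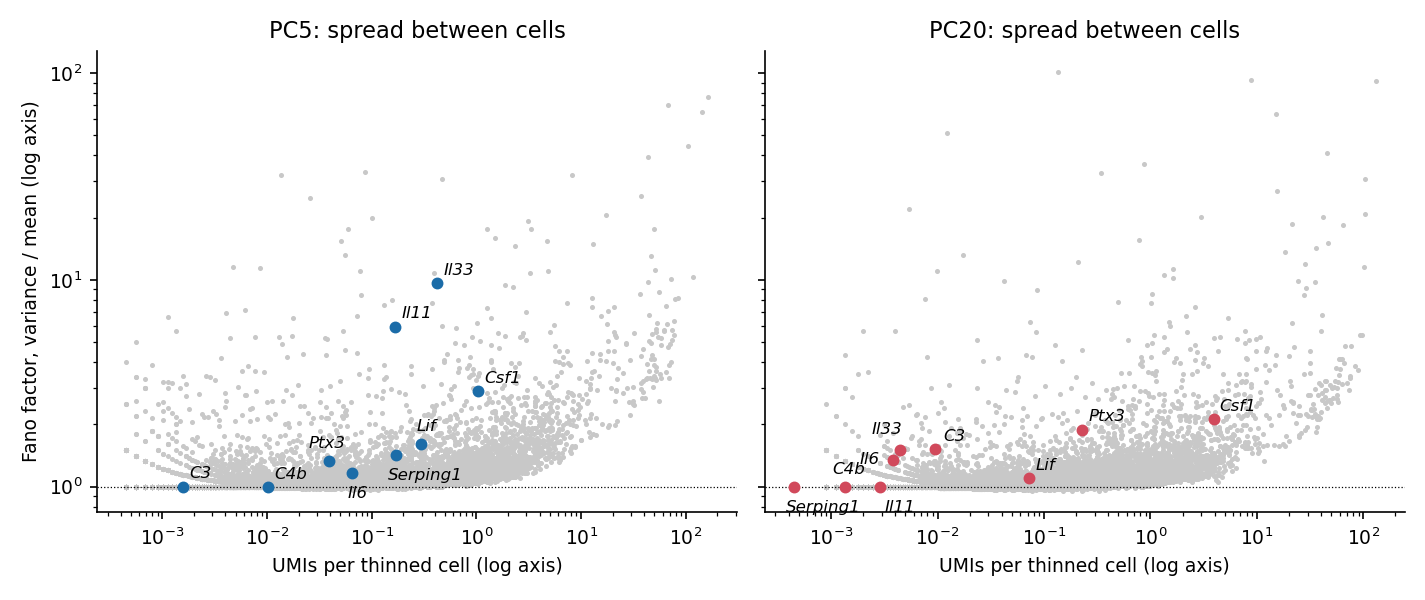
Each point is a gene, placed by its mean UMIs per thinned cell (log axis) and its Fano factor (log axis), for PC5 on the left and PC20 on the right, with the 9 genes in colour and other genes in grey. The dotted line marks 1. *Il33* (9.64) and *Il11* (5.93) stand above the bulk of genes of like mean in PC5, and in PC20 *Ptx3* (1.89) and *Csf1* (2.12) stand highest of the 9.

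**Figure D4:**
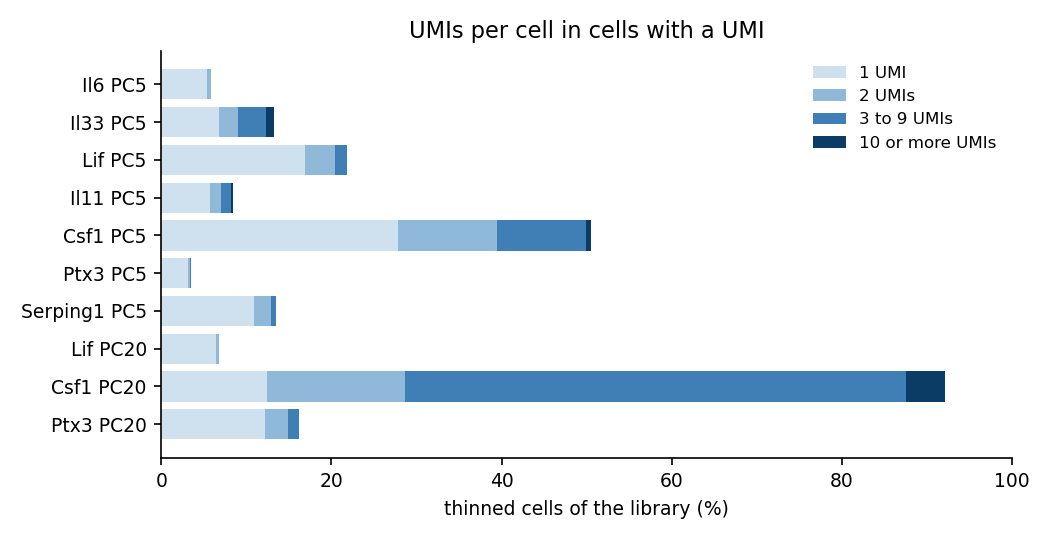
Bars show the percentage of all thinned cells of a library that held 1, 2, 3 to 9, or 10 or more UMIs of a gene, for members found in over 3% of the thinned cells of that library. In PC5 10 or more UMIs of *Il33* were held by 0.927% of cells and of *Il11* by 0.203%, and in PC20 58.9% of cells held 3 to 9 UMIs of *Csf1*.

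No pair of members had a high correlation across the cells of a library. Across thinned PC5 cells, Pearson's *r* on the log of UMIs plus 1 lay between -0.05 and 0.09 for every pair of the 6 members found in at least 5% of cells. The highest was between *Il33* and *Il11*, with 163 cells positive for both, where the product of their shares gives 99.0. In PC20 the highest was 0.10 between *Csf1* and *Ptx3*. All points come from 1 library each and share its counting error, and values this low in sparse counts are no finding. Sparse counts also hold *r* low, so these values do not show that members are unrelated. The *Il6* cells of PC5 were no exception, with 66 cells positive also for *Il33* where the product gives 69.0 and 46 positive for *Il11* where it gives 43.8.

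The genes most like each member across cells differed from member to member. Among 7438 genes found in at least 10% of thinned PC5 cells, those with the highest *r* to *Il33* were *Tgfbi* (0.32), *Ccl7* (0.26) and *Man1a* (0.26). For *Csf1* they were *Mgp* (0.26), *Thbs1* (0.24) and *Fbln2* (0.24), and for *Serping1* *Selenop* (0.24), *Lbp* (0.23) and *Spp1* (0.21). *Il11* was most like *Odc1* (0.22), *Thbd* (0.21) and *Far1* (0.15), *Lif* most like *Ccl7*, *Fn1* and *Ccl2* (each 0.14), and *Il6* most like *Thbs1* (0.13), *Ptgs2* (0.12) and *Cyr61* (0.10). In PC20 *Csf1* was most like *Txnrd1* (0.31), *mt-Co3* (0.27) and *mt-Nd1* (0.26), *Ptx3* most like *Hspd1* (0.16), *Hspa5* (0.16) and *Ncl* (0.15), and *Lif* most like *Cdkn1a* (0.07). No gene was among the first 3 for *Csf1* in both libraries.

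A group of PC5 cells rich in chemokine mRNA held more of several members. The 885 thinned PC5 cells with the most UMIs summed over the 10 chemokines, 14 or more each with 97 cells at that value, were set beside the other 7962. This class is a range of a sum and not a cell type. *Il33* had 1475 UMIs per 1000 cells there and 305 in the other cells, a log2 ratio of 2.27 (2.17 to 2.37), and the 885 cells held 34.9% of its UMIs. *Il11* was 3.26-fold higher there (log2 ratio 1.71, 1.54 to 1.87), *Lif* 2.38-fold (614 and 258 UMIs per 1000 cells) and *Serping1* 1.70-fold (0.77, 0.56 to 0.97). *C4b*, with 19 and 72 UMIs, and *Ptx3*, with 61 and 286, were 2.37-fold and 1.92-fold higher. *Csf1* did not differ beyond counting error, at 990 and 1040 UMIs per 1000 cells (-0.07, -0.17 to 0.03), and *Il6* stood at 82.5 and 62.9 (0.39, 0.02 to 0.75). The median depth of the cells before thinning was 20291 UMIs in the class and 23403 outside it. The intervals take UMIs as independent and are too narrow for *Il33* and *Il11*, whose UMIs were concentrated in few cells. The share of positive cells was 27.3% in the class and 11.7% outside it for *Il33*. For *Il11* the shares were 14.9% and 7.71%.

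In PC20 the same split gave 447 cells with 4 or more chemokine UMIs, with 92 cells at that value, and 4027 others. The sum rested on other chemokines than in PC5. *Ccl2* and *Ccl7* had 3311 and 1863 UMIs per 1000 thinned PC5 cells, and 137 and 23.2 in PC20. *Cxcl10* and *Ccl5* had 101 and 50.8 in PC5, and 867 and 779 in PC20. The classes of the libraries are therefore not like groups of cells. *Csf1* did not differ beyond counting error in the PC20 split either, with a log2 ratio of 0.00 (-0.08 to 0.07). *Ptx3* went the other way than in PC5, with 143 UMIs per 1000 cells in the class and 238 outside it (-0.73, -1.12 to -0.37). *Il6* had 9 UMIs in the class and 8 in the much larger rest. *Lif* stood at 85.0 and 71.5 UMIs per 1000 cells (0.25, -0.28 to 0.74). These are intervals on the counts of 1 library and not tests between cultures.

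Among thinned cells, those with a UMI of *Mki67* or *Top2a*, genes of dividing cells, held less of most members in PC5. The split was 3147 cells with such a UMI and 5700 with none. The median depth before thinning was 26126 UMIs in the first group and 21697 in the second. The part of depth in these differences was not tested. *Il33* had 250 UMIs per 1000 cells in the first and 517 in the second, a log2 ratio of -1.05 (-1.16 to -0.93). *Serping1* (-0.65), *Il11* (-0.42), *Lif* (-0.30) and *Csf1* (-0.24) were lower as well, and the intervals of all 4 lay below 0. These intervals take UMIs as independent, and for *Il11*, with its UMIs concentrated in few cells, the share of positive cells was 8.04% in the first group and 8.65% in the second. For *Il33*, which was concentrated as well, the shares were 10.6% and 14.8%. *Il6* stood at 66.1 and 64.2 UMIs per 1000 cells (0.04, -0.21 to 0.29). *Ptx3* was higher in these cells, at 52.1 and 32.1 (0.70, 0.39 to 1.01). In PC20, 2619 of 4474 thinned cells held such a UMI, and the median depth before thinning was 39215 UMIs with it and 29170 without. *Ptx3* was again higher in the first group at 250 and 198 (0.34, 0.15 to 0.53). *Csf1* stood at 3825 and 4032 (-0.08, -0.12 to -0.03). With cells free of such UMIs in both libraries, no log2 ratio of PC5 over PC20 changed sign, and that of *Lif* was 2.12 and that of *C3* -3.62.

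**Figure D5:**
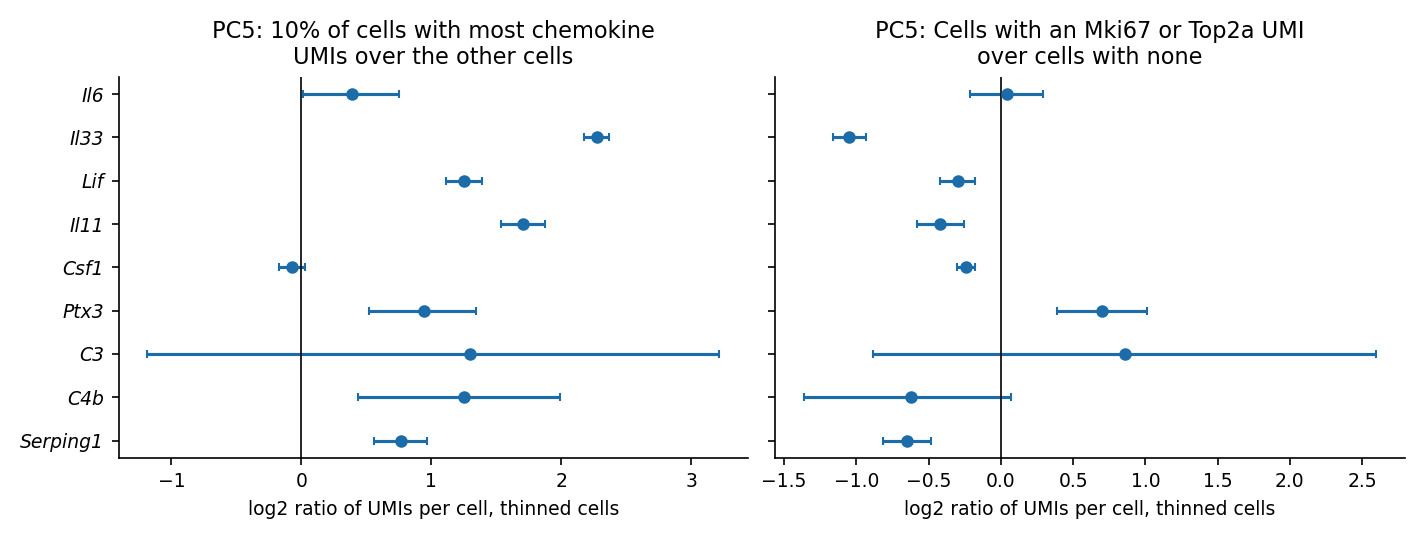
The log2 ratio of UMIs per cell for the 9 genes in thinned PC5 cells, with exact conditional binomial 95% intervals. Left, the 885 cells with the most chemokine UMIs over the other 7962. Right, the 3147 cells with an *Mki67* or *Top2a* UMI over the 5700 with none. *Il33* is at 2.27 on the left and -1.05 on the right, while *Ptx3* is above 0 on both sides.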

How the data were processed

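Single cell RNA sequencing libraries of cultured PCs at passage 5 and passage 20 were analysed, 1 library each, made with a 3′ droplet kit. The deposited values are raw UMI counts for every gene in every cell barcode, which the authors made with Cell Ranger 5.0 (5.0.1 in the matrix header) on mm10, with no normalization. Cells with more than 1000 genes and under 20% UMIs of mt- genes were kept, as in the methods of the study. No doublet caller was run and doublets stayed in. CPM took the sum of UMIs over all kept cells, which gives deeper cells more weight, and log2 ratios had no pseudocount. Intervals at the 95% level were exact Poisson (CPM), conditional binomial (ratios) and Clopper-Pearson (shares), and a count of 0 was read as allowing up to 3 UMIs. Thinning drew 10500 UMIs per cell, the depth below which 10% of the kept cells lay, lowered to a multiple of 500. Genes with a UMI in at least 10% of cells of either library were counted by a 2-fold threshold. Gene positions came from GENCODE M21 on GRCm38. RefSeq promoter windows were found for 7 members and not for *C4b* and *Serping1*, and the motifs were chosen after the sequences were seen.

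All 9 members are named. From the pathway and marker lists, genes that reached 10% of cells and the receptors of the member cytokines are named, with other list genes added after their values were seen. For members in at least 5% of thinned cells, the 3 genes with the highest Pearson's *r* are named. From the lists, 2 genes are not reported here, and the list counts leave them out. The members and lists were chosen with earlier results of these data known. The interval computation was tested on simulated data with counting error alone. That does not check the intervals of genes with UMIs concentrated in few cells. The alternatives were other cell filters, depths, library sizes, weightings, thresholds and subsets of cells. Python 3.11.15, numpy 2.4.6, scipy 1.17.1 and pandas 2.3.3 were used.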

Additional observations from a re-analysis of the deposited data

Results flagged for a closer look

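The barcodes left out by the cell filter, 679 with 924207 UMIs in PC5 and 135 with 184103 UMIs in PC20, also held UMIs of the members, above the 3 UMIs that a count of 0 allows. In PC5 they held 38 UMIs of *Il33*, 26 of *Csf1*, 18 of *Lif*, 13 of *Serping1* and 10 of *Il11*. In PC20 they held 57 UMIs of *Csf1*, 5 of *Lif*, 5 of *C3* and 4 of *Ptx3*. On the CPM scale, over the UMIs of these barcodes, *Il33* stood at 41.1 CPM (29.1 to 56.4) in PC5. *Csf1* stood at 28.1 CPM (18.4 to 41.2) in the PC5 barcodes and at 310 CPM (234 to 401) in those of PC20. *C3* stood at 27.2 CPM (8.82 to 63.4) in the left out PC20 barcodes, from 2 barcodes, against 0.994 CPM in the kept cells.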

How the results depend on the processing

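No paired analysis was possible because each passage has 1 library and no test was made. Of 84 member log2 ratios under the alternatives, 0 changed sign, 0 fell under 2-fold, 73 stayed within the 95% interval and 11 left it, not counting 6 ratios that could not be had because the alternative removed every UMI of a library. The count of members over 2-fold higher in PC5 was 3 in thinned cells, where *Il6* and *Il11* missed the detection minimum, and that of members higher in PC20 was 1 at a 4-fold threshold, which 4 members passed in the PC5 direction, against 6.20% and 7.20% of all genes. At a detection minimum of 1% of cells the counts were 6 in PC5 and 3 in PC20, against 22.3% and 20.0% of all genes. The median log2 ratio of the members was 4.42 without the 1% of cells with the most UMIs of each gene, where those 6 members had 0 UMIs left in a library and enter as bounds against 3 UMIs per library. Those bounds were 4.42 to 10.53 for *Il6*, *Il33*, *Il11*, *C4b* and *Serping1*, and -4.35 for *C3*. Under the other alternatives the median of the members lay between 2.70 and 3.51 and was the ratio of *C4b* each time. The median over all genes lay between -0.04 and 0.03. Depth limits *C3*, *C4b* and *Serping1* most, since each had 30 UMIs or fewer in a library.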
